A study of Mus musculus with 17 samples.

Results

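The 6 libraries of non-irradiated lung described here, 3 collected at 6 weeks (con_6w) and 3 at 2 weeks (con_2w), are 6 of the 17 RNA-seq libraries of a study of focal lung irradiation in mice. They were chosen by their labelled group and time, and every gene in the count table was taken into account. The study irradiated the left lung of mice with a single dose of 65 or 75 Gy and collected lungs 2 or 6 weeks later, at times that stand for pneumonitis and for fibrosis in this model, with non-irradiated mice of both times as controls. Comparing the controls of both times shows how much the lung transcriptome differed between them without any irradiation.

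All 6 libraries came from wild-type male C57BL/6 mice that had received no radiation. The mice were 6 weeks old on arrival and were kept for 1 week before the experiment began, so that the con_2w mice were about 9 weeks old and the con_6w mice about 13 weeks old at collection. The irradiated libraries used for comparison came from the same strain and sex, with 3 libraries of 75 Gy at each time, 3 of 65 Gy at 2 weeks and 2 of 65 Gy at 6 weeks. Age, time in the animal house and the day of collection changed together between the groups and cannot be told apart, and the sources used here do not give the date or hour at which lungs were taken. They also do not say whether each library is 1 animal or which lobe was sampled in the controls. The p-values rest on the spread between libraries within every group of the series, irradiated groups included. This spread may be technical in part.

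The adult lung keeps its own circadian clock, in which the transcription factors BMAL1 (encoded by Arntl) and CLOCK or NPAS2 switch on the Per, Cry and Nr1d genes, whose products in turn shut this activation off. Young adult lungs are also still finishing growth, and the elastic and collagen fibres laid down during alveolar development are mostly made before maturity. Heat shock chaperones, which keep proteins folded, are transcribed at a rate that follows the load of unfolded protein in the cell.

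Each control library held between 46764569 and 62021693 counts on genes, and between 23805 and 24679 genes had at least 1 count. In a principal component analysis, the first component (PC1) carried 29.8% of the variance among the 6 libraries and the second 22.6%, and library 3126 of con_2w stood apart on PC1, at -72.5, while the other 5 libraries lay between -14.7 and 36.8. The con_2w libraries varied more among themselves: the coefficient of variation was greater in con_2w than in con_6w for 15798 of the 22052 genes tested, or 71.6%. Lung markers were present in every library, with the 14 alveolar type 2 markers summing to between 24366 and 37083 CPM (normalised counts, scaled to library size with TMM factors), and the Y-linked Ddx3y lay between 89.3 and 135 CPM. In bulk tissue, fewer cells of a type and less RNA per cell cannot be told apart.

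Between con_6w and con_2w, 127 of 22052 genes were called, that is, edgeR's quasi-likelihood test gave an adjusted p of 0.05 or less and the log2 fold change was 1 or more in either direction. This is 0.576% of the genes tested, with 53 genes higher at 6 weeks (0.24%) and 74 lower (0.336%). By the adjusted p alone, 135 genes were higher (0.612%) and 224 lower, 1.63% in all. Protein-coding genes made up 84 of the 127, and 11 were pseudogenes. The mean level was under 0 log2 CPM for 36 of the called genes. The 3 and 3 libraries did not overlap for any of the 127, and they did not overlap for 23.6% of all genes tested.

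Genes of the circadian clock, heat shock chaperones and matrix genes led the list among genes whose mean was 1 log2 CPM or more. The clock output factor Dbp rose most, followed by the clock repressor Bhlhe41. Hspa1b and Hspa1a, which encode the inducible HSP70 chaperone, fell most, followed by the secreted matrix protein gene Spon2 and the clock activators Npas2 and Arntl. In the plot of fold change against level, genes that were not called also reached such changes, among them Cyp1a1 at -3.23 and Egr1 at 2.15, each with 1 library far above the others of its group.

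**Figure D1:**
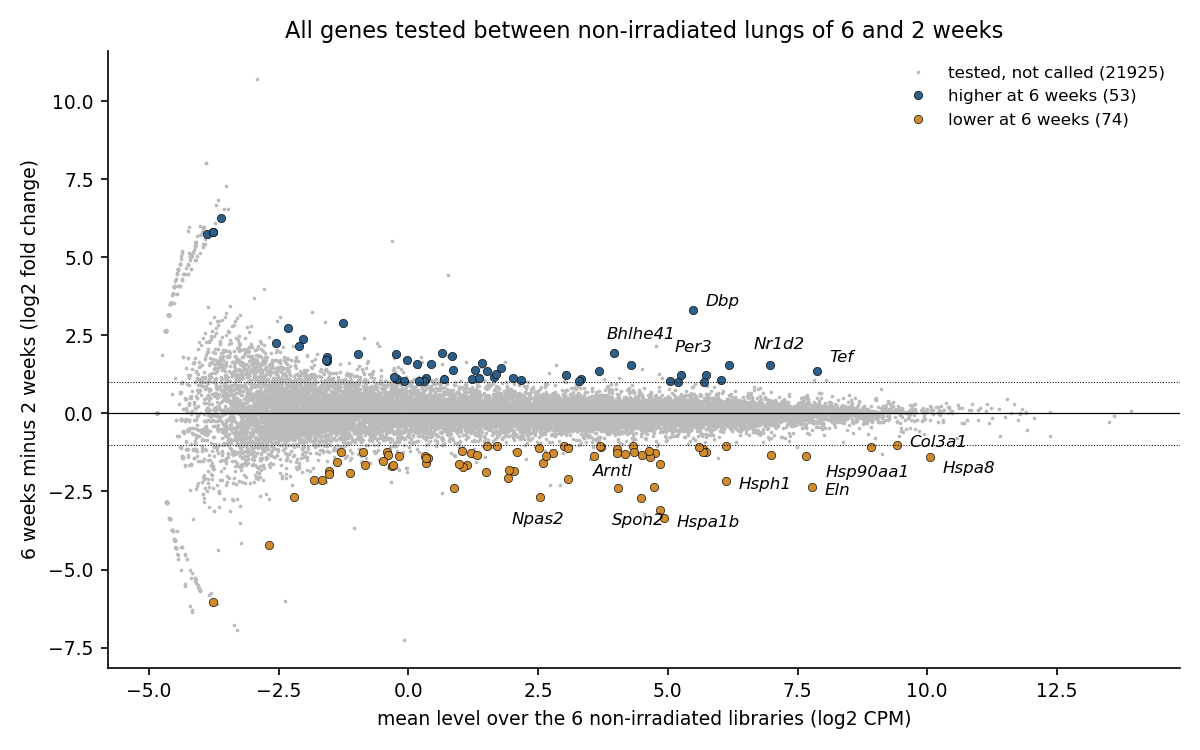
The log2 fold change of each gene tested (6 weeks minus 2 weeks, vertical axis) is plotted against its mean level over the 6 non-irradiated libraries (log2 CPM, horizontal axis), with the 53 genes called higher in blue, the 74 called lower in orange and the others in grey. Dotted lines mark a log2 fold change of 1 and -1, and Dbp at 3.32 and Hspa1b at -3.36 lie farthest out among the called genes above 1 log2 CPM.

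Of the 21 core clock genes on the list, all 21 were tested, and 6 were called higher at 6 weeks and 2 lower, against 0.576% of all genes tested. Per2, Per3, Nr1d2, Dbp, Tef and Bhlhe41 rose, whereas Arntl and Npas2 fell. The median log2 fold change of the 21 genes was 0.70, against 0.01 over all genes tested, with 16 genes above 0 and 5 below. The promoters of the called clock genes are shown here because factors of the clock bind known motifs: BMAL1 with CLOCK or NPAS2 the E-box, DBP, TEF and NFIL3 the D-box, and REV-ERB proteins the core TAGGTCA. The RefSeq table of GRCm38.p6 holds promoters of 7 of the 8 genes, each from 250 bases before to 50 bases after a transcription start, and those with a match in either strand follow, 5′ to 3′, with the matched letters in capitals.
Per3 promoter, chr4:151044616-151044915, minus strand: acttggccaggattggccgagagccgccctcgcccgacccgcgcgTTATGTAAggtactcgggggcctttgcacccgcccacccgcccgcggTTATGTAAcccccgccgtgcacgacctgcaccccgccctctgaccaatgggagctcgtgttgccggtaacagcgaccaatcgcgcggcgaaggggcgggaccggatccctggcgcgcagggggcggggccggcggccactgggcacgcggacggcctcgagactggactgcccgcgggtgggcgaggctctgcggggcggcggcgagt
Tef promoter, chr15:81802423-81802722, plus strand: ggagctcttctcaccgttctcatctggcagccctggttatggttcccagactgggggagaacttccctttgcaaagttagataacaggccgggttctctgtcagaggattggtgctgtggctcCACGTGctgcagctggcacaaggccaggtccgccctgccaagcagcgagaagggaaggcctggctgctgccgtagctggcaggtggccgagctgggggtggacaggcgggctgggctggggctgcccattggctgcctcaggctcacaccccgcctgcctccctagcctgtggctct
Bhlhe41 promoter, chr6:145865371-145865670, minus strand: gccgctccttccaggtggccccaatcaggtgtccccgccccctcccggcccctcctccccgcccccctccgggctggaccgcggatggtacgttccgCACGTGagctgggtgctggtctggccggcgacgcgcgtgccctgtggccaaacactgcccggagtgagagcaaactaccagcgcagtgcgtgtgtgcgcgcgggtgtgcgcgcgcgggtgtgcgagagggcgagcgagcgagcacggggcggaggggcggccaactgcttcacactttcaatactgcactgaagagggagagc
Arntl promoter, chr7:113207261-113207560, plus strand: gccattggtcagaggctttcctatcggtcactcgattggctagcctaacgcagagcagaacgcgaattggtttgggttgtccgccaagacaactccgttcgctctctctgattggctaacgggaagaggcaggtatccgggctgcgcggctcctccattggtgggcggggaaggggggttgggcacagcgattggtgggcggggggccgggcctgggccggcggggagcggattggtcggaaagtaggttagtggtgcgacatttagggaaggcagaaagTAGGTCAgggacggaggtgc

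The capitals mark the D-box TTATGTAA in Per3, the E-box CACGTG in Tef and Bhlhe41, and TAGGTCA in Arntl. In Per3 the D-box letters begin at -205 and again at -158 relative to the start, which is counted as 0. The E-box begins at -127 in the Tef promoter shown and at -153 in Bhlhe41, and TAGGTCA begins at 30 in Arntl. The other Tef promoter also holds an E-box, at -138, and the other Arntl promoter holds no match. Of 32851 promoters of the same length, 7.15% hold the E-box, 1.06% the D-box (TTATGTAA or TTACGTAA) and 2.61% the core TAGGTCA. No match to these letters was found in the promoters of Dbp, Nr1d2 and Npas2, and none to the cAMP response element TGACGTCA, which 1.79% of promoters hold, in any of the 7 genes. A match describes the letters in this window and does not show binding.

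The activating arm of the clock was lower at 6 weeks. Arntl (chromosome 7, 113178471 to 113314126) encodes BMAL1 and stood at 36.8, 42.8 and 33.7 CPM in the con_2w libraries 3126, 3127 and 3128, and at 6.75, 7.20 and 7.59 CPM in the con_6w libraries 3135, 3136 and 3137. The lowest 2-week library was well above the highest 6-week library, and the log2 fold change was -2.40 (SE 0.13, adjusted p = 1.87e-07). Npas2 (chromosome 1, 39193702 to 39363240), whose product can take the place of CLOCK, was at 14.3, 17.3 and 12.8 CPM at 2 weeks and at 1.88, 2.23 and 2.79 CPM at 6 weeks, which is -2.69 on the log2 scale (SE 0.27, adjusted p = 0.000154). Clock itself passed the adjusted p but not the limit on fold change, with a mean of 129 ± 13.4 CPM at 2 weeks and 84.8 ± 2.15 CPM at 6 weeks (SD, n = 3 each), which is -0.60 on the log2 scale (SE 0.10, adjusted p = 0.00795).

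Of the repressing arm and the output factors, Per2, Per3, Nr1d2, Bhlhe41, Dbp and Tef rose. Dbp (chromosome 7, 45705100 to 45710203), a transcription factor that binds D-boxes in clock output genes, was at 4.87, 13.8 and 28.9 CPM at 2 weeks and at 159, 174 and 143 CPM at 6 weeks. All 3 libraries of 6 weeks lay far above those of 2 weeks, which also differed several-fold among themselves, and the log2 fold change was 3.32 (SE 0.49, adjusted p = 0.00381). Its relative Tef was at 89.2, 180 and 178 CPM at 2 weeks and at 379, 413 and 365 CPM at 6 weeks, which is 1.37 on the log2 scale (SE 0.25, adjusted p = 0.0129). The third member of this family, Hlf, had means of 15.3 ± 9.79 and 41.4 ± 2.99 CPM (SD, n = 3 each) and did not pass the test (log2 fold change 1.43, adjusted p = 0.136).

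Among the Period genes, which encode repressors of BMAL1 and CLOCK, Per3 was at 18.9, 55.0 and 59.8 CPM at 2 weeks and at 131, 141 and 122 CPM at 6 weeks, which is 1.56 on the log2 scale (SE 0.34, adjusted p = 0.0328). Per2 was at 19.4, 57.4 and 33.3 CPM at 2 weeks and at 87.0, 87.4 and 83.1 CPM at 6 weeks, which is 1.23 on the log2 scale (SE 0.27, adjusted p = 0.0378). The 6-week libraries were close together and the 2-week libraries were spread, and the groups did not overlap in either gene. Per1 had means of 156 ± 16.3 and 329 ± 21.8 CPM (SD, n = 3 each) with no overlap, but its log2 fold change of 1.07 had an adjusted p of 0.144. Of the Cryptochromes, the partners of the Period proteins, Cry2 passed the adjusted p (log2 fold change 0.70, adjusted p = 0.0428) and Cry1 did not (-0.34, adjusted p = 0.366).

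Nr1d2, which encodes REV-ERB beta, a nuclear receptor that represses Arntl, was at 42.7, 82.4 and 104 CPM at 2 weeks and at 222, 228 and 213 CPM at 6 weeks (log2 fold change 1.53, SE 0.26, adjusted p = 0.00966). Its paralog Nr1d1 was at 28.9, 71.6 and 127 CPM at 2 weeks and at 229, 236 and 237 CPM at 6 weeks, and its adjusted p of 0.0501 lay just outside the limit. Bhlhe41, which encodes a repressor that competes for E-boxes, was at 6.31, 8.74 and 9.15 CPM at 2 weeks and at 30.7, 33.3 and 28.2 CPM at 6 weeks (log2 fold change 1.93, SE 0.17, adjusted p = 4.88e-05). Bhlhe40, its paralog, did not pass the test (0.45, adjusted p = 0.21). The nuclear receptor gene Rora, whose product activates Arntl, and the kinase genes Csnk1d and Csnk1e, whose products phosphorylate the Period proteins, had log2 fold changes between 0.06 and 0.39 and did not pass it. Nfil3, a repressor at D-boxes, had a log2 fold change of -1.45 with an adjusted p of 0.115, and Ciart, a further repressor, one of 0.90 with an adjusted p of 0.0613.

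In all 6 clock genes that rose, library 3126 was the lowest of the con_2w group, and in both that fell, library 3127 was the highest. The coefficient of variation was greater at 2 weeks in 7 of the 8 called clock genes. Arntl, Npas2, Dbp, Nr1d2 and Bhlhe41 were called with any 1 of the 6 libraries left out. Per2 was lost without 3126, 3128, 3135, 3136 or 3137 (adjusted p from 0.0782 to 0.116), Per3 without any 1 of the con_6w libraries (from 0.0831 to 0.111) and Tef without 3136 (0.0573), so that without 3136 the list had 5 called members. With only the 6 control libraries in the fit, 4 clock genes were called, and these were Arntl, Npas2, Bhlhe41 and Per1.

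**Figure D2:**
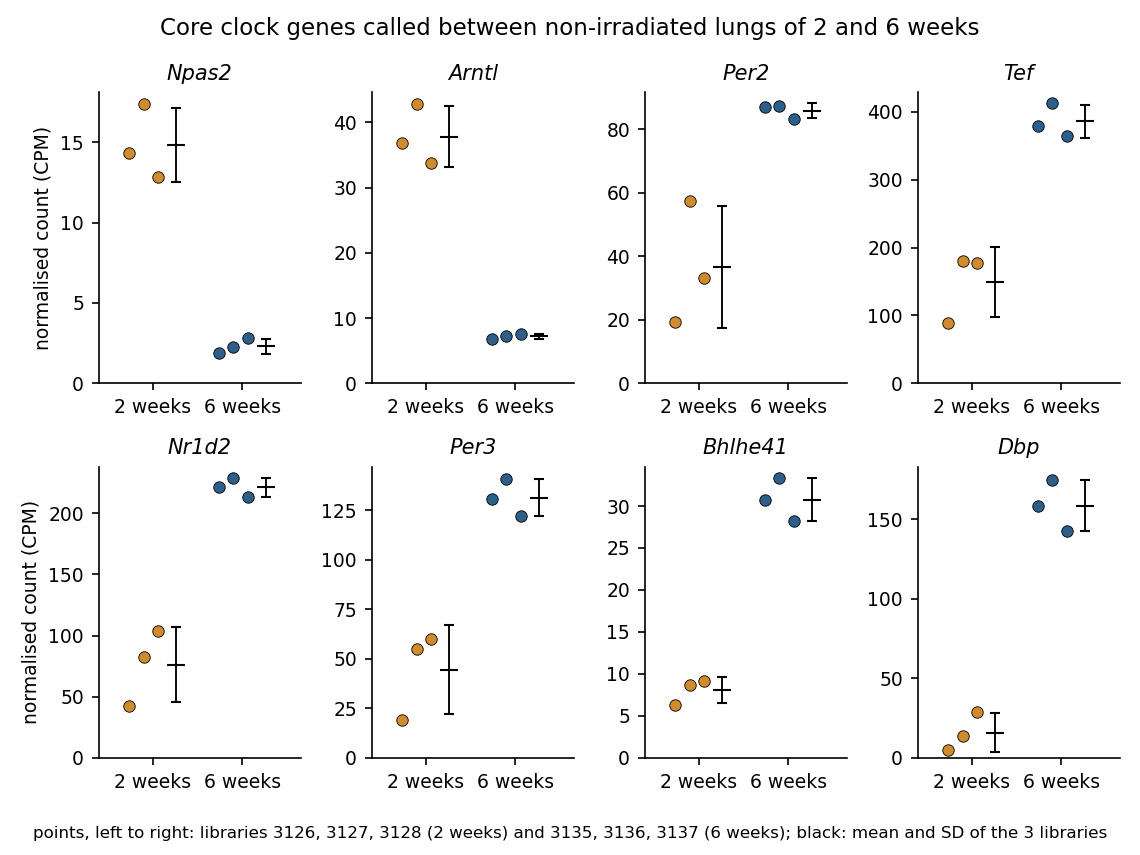
Normalised counts (CPM) of the 8 called core clock genes in each of the 3 non-irradiated libraries of 2 weeks (orange) and of 6 weeks (blue), with the mean and SD in black. Npas2 and Arntl are lower at 6 weeks and the other 6 genes are higher, and no gene has overlapping groups.

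Among 10 further genes known as outputs of the clock, Tspan4, which encodes a tetraspanin, was called higher. Leo1, which encodes a subunit of the PAF1 transcription elongation complex, was called lower. Over all genes tested, 0.24% were called higher and 0.336% lower. By the adjusted p alone, 4 of the 10 were higher and 3 lower, against 0.612% and 1.02% of all genes tested. Tspan4 was at 22.4, 22.3 and 24.6 CPM at 2 weeks and at 47.4, 50.7 and 43.8 CPM at 6 weeks (log2 fold change 1.03, SE 0.12, adjusted p = 0.000626). Leo1 was at 20.6, 19.9 and 15.3 CPM and at 8.58, 9.02 and 9.32 CPM (-1.05, SE 0.12, adjusted p = 0.000705). Both values are near the limit of 1, and Tspan4 was at 0.98 without 3136 and Leo1 at -0.97 without 3126, and just short of the limit without 3127, with adjusted p-values still under 0.05. Wee1, a kinase that holds back mitosis, had a log2 fold change of 0.93 (adjusted p = 0.00587), and the deubiquitinase gene Usp2 one of 0.83 (adjusted p = 0.0199).

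Glucocorticoids set peripheral clocks and induce Per1 and Klf9. Of the 16 glucocorticoid-responsive genes tested, 0 were called and 0 passed the adjusted p of the quasi-likelihood test. However, 5 of the 16 did not overlap, all higher at 6 weeks (12.4% of all genes tested). An unadjusted p under 0.05 in this test was found for 4, against 15.5% of all genes tested. DESeq2 called 1, Per1, which is on both lists, and the exact test 0. Klf9 came nearest, with means of 198 ± 23.5 and 314 ± 23.9 CPM (SD, n = 3 each), with a difference of 0.66 on the log2 scale and an adjusted p of 0.0623. The cold-inducible RNA-binding protein gene Cirbp, whose level follows body temperature through the day, was at 40.4, 42.8 and 52.7 CPM at 2 weeks and at 95.0, 98.9 and 90.4 CPM at 6 weeks. Its groups were well apart, with a difference of 1.07 on the log2 scale (SE 0.13, adjusted p = 0.00127), while its relative Rbm3 was at 0.54 with an adjusted p of 0.146. Without 3126, Cirbp stood at 0.99, just under the limit.

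Heat shock chaperones were lower at 6 weeks. Of 21 genes tested, 9 were called lower and 0 higher, against 0.336% of all genes called lower, and 15 were lower by the adjusted p alone, against 1.02% of all genes. The log2 fold change was below 0 for 20 of the 21, with a median of -0.91, and Cryab was the exception at 0.06. The summed level of the list was 6554, 7147 and 4863 CPM in the con_2w libraries and 3067, 3070 and 3181 CPM in those of con_6w. Promoters of 7 of the 9 called genes are in the RefSeq table, and those of Hsph1 and Chordc1 are shown because they hold the heat shock element searched for, a run of 3 units that alternate between GAA and TTC with 2 bases between units, which is the binding site of the heat shock factor HSF1 and is present in 0.603% of promoters.
Hsph1 promoter, chr5:149636287-149636586, minus strand: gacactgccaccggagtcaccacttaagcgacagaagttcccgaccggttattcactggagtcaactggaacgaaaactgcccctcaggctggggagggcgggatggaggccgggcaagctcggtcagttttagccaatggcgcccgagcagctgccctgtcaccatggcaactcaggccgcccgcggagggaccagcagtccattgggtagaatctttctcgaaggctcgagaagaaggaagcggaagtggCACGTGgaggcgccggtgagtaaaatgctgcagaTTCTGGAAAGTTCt
Chordc1 promoter, chr9:18292017-18292316, plus strand: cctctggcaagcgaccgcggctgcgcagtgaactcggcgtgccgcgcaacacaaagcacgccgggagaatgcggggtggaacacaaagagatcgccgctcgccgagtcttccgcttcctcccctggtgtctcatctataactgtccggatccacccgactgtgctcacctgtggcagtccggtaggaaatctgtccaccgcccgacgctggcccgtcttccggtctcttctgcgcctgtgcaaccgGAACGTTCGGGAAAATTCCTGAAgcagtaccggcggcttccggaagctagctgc

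The capitals mark the heat shock element and, in Hsph1, the E-box CACGTG, which lies upstream of it. In Hsph1 the element begins at 36. In Chordc1, which encodes a partner of HSP90, 3 overlapping matches begin at -4, 1 and 6. The same letters were not found in the tabulated promoters of Hspa1a, Hspa1b, Dnajb1, Dnaja1 and Cacybp, a statement about exact matches in these windows only.

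Hspa1b (chromosome 17, 34956429 to 34959238) was at 117, 181 and 29.8 CPM at 2 weeks and at 10.6, 9.81 and 11.5 CPM at 6 weeks, which is -3.36 on the log2 scale (SE 0.45, adjusted p = 0.00193). Hspa1a (chromosome 17, 34969359 to 34972156) was at 106, 152 and 26.1 CPM and at 10.4, 10.6 and 12.4 CPM, which is -3.09 on the log2 scale (SE 0.44, adjusted p = 0.00297). These neighbouring genes are near-identical copies, so that the division of reads between them is uncertain and their values are not independent. Library 3128 was several-fold lower than 3126 and 3127 in both, but still above every 6-week library.

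Hsph1, which encodes an HSP110 nucleotide exchange factor for HSP70, was at 142, 235 and 85.2 CPM at 2 weeks and at 34.4, 32.5 and 36.3 CPM at 6 weeks (log2 fold change -2.16, SE 0.28, adjusted p = 0.00131). Hspa8, the constitutive HSP70, was at 1784, 2025 and 1393 CPM at 2 weeks and at 669, 711 and 617 CPM at 6 weeks (-1.38, SE 0.16, adjusted p = 0.000626). Both genes had a wide gap between the lowest 2-week and the highest 6-week library. The genes for 2 J-domain partners of HSP70, Dnaja1 and Dnajb1, had log2 fold changes of -1.37 (SE 0.22, adjusted p = 0.00585) and -1.24 (SE 0.20, adjusted p = 0.00714). Hsp90aa1, the inducible HSP90, was at 1011, 710 and 460 CPM and at 343, 317 and 365 CPM (-1.09, SE 0.21, adjusted p = 0.0175).

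Chordc1 was at 94.1, 93.6 and 59.9 CPM at 2 weeks and at 36.8, 32.8 and 35.3 CPM at 6 weeks (log2 fold change -1.24, SE 0.16, adjusted p = 0.00151), and Cacybp, whose product binds calcyclin, was called at -1.14 (SE 0.23, adjusted p = 0.0266). The genes that passed the adjusted p alone included Serpinh1, which encodes the collagen chaperone HSP47 (-0.92, adjusted p = 0.0023), Stip1, which joins HSP70 to HSP90 (-0.91, adjusted p = 0.00338), and the immunophilin gene Fkbp4 (-0.78, adjusted p = 0.00739). Bag3, Hspb1, Hspe1, Hspb8 and Hspa4l had log2 fold changes from -0.59 to -0.30 and did not pass. In all 9 called genes library 3128 was the lowest of con_2w, and the coefficient of variation was greater at 2 weeks than at 6 weeks. Pseudogenes were among the called genes too, with Gm15459 at 207, 239 and 162 CPM and at 80.8, 85.8 and 73.6 CPM (-1.34, SE 0.16, adjusted p = 0.000672), and reads of pseudogenes and of their parent genes may be shared, which was not tested.

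Hsp90aa1 was lost without 3126, 3135, 3136 or 3137 (adjusted p from 0.0553 to 0.0919) and Cacybp without the same libraries (from 0.0895 to 0.105), and the number of called chaperones with 1 library left out lay between 7 and 10. With only the 6 control libraries in the fit, Hspa8 alone of the 9 was called, and the adjusted p of the others lay between 0.0519 for Chordc1 and 0.133 for Hsp90aa1.

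**Figure D3:**
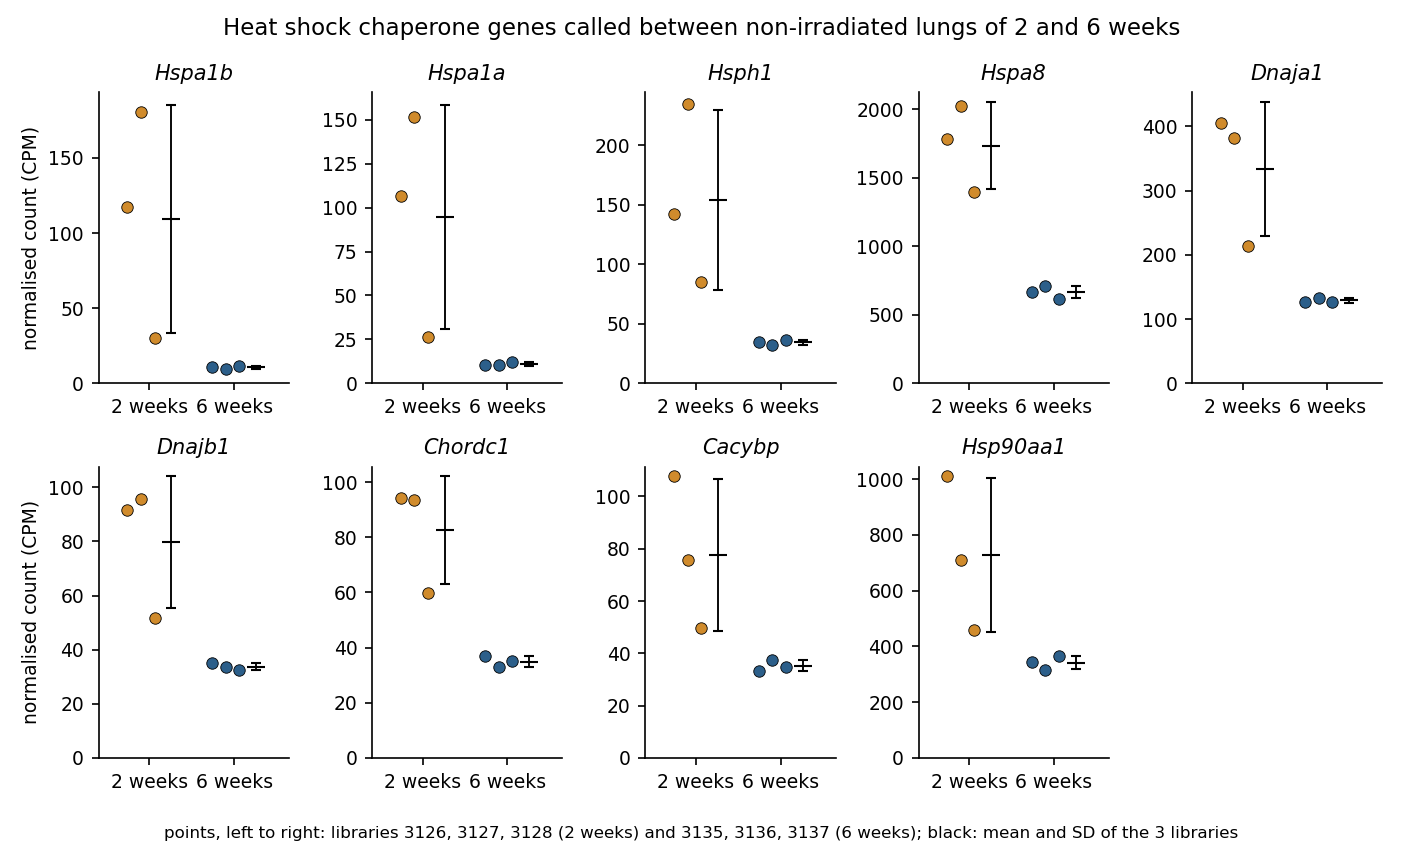
Normalised counts (CPM) of the 9 called heat shock chaperone genes in each of the 3 non-irradiated libraries of 2 weeks (orange) and of 6 weeks (blue), with the mean and SD in black. All 9 are lower at 6 weeks, the 6-week libraries lie close together, and library 3128 is the lowest of the 2-week group in each panel.

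Chaperones of the endoplasmic reticulum, where secreted proteins fold, were measured as a separate list of 12 genes. In the quasi-likelihood test 0 of the 12 were called, 3 were lower by the adjusted p alone (1.02% of all genes tested), and 11 had a log2 fold change below 0, with a median of -0.46. Hspa5, which encodes the HSP70 of this compartment, was at 772, 678 and 573 CPM at 2 weeks and at 407, 396 and 370 CPM at 6 weeks (-0.79, SE 0.13, adjusted p = 0.00633). Manf was at -0.67 (adjusted p = 0.0102) and Hyou1 at -0.46 (adjusted p = 0.0334). The summed level of this list was between 2733 and 3358 CPM at 2 weeks and between 2218 and 2241 CPM at 6 weeks. By DESeq2 and by edgeR's exact test, 0 of the 12 were called and 9 passed the adjusted p in each, and 12 had an unadjusted p under 0.05 in the quasi-likelihood test (15.5% of all genes tested).

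Of the collagen and elastic fibre lists, 1 gene each was called, Col3a1 and Eln, both lower at 6 weeks, against 0.336% of all genes called lower. Eln (chromosome 5, 134702595 to 134747368), which encodes elastin, the core of elastic fibres, was at 391, 414 and 713 CPM at 2 weeks and at 86.2, 114 and 99.3 CPM at 6 weeks. Every 2-week library was more than 3 times the highest 6-week library, and the log2 fold change was -2.34 (SE 0.26, adjusted p = 0.000583). Of the 21 genes for elastic fibre proteins and lysyl oxidases, Eln was the one that was called. Fbn1, which encodes the microfibril protein fibrillin-1, also passed the adjusted p (269 ± 66.5 and 170 ± 5.70 CPM, SD, n = 3 each, log2 fold change -0.66, adjusted p = 0.0217). By the adjusted p alone, 1.02% of all genes tested were lower. The crosslinking enzymes Lox and Loxl1 were at -0.29 and -0.59 and did not pass, and the median of the list was -0.19.

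Of 20 collagen chain genes, 17 had a log2 fold change below 0, with a median of -0.32. Of the 20, 1 was called lower (0.336% of all genes tested) and 2 were lower by the adjusted p alone (1.02%). The groups did not overlap for 8, all lower at 6 weeks, against 2479 of all 22052 genes tested. Col3a1, the chain of type III collagen, was at 724, 904 and 1334 CPM at 2 weeks and at 412, 556 and 500 CPM at 6 weeks (-1.01, SE 0.19, adjusted p = 0.0175), and with only the 6 control libraries in the fit it had an adjusted p of 0.0993. Col5a2, a chain of type V collagen, which nucleates fibrils, had means of 191 ± 21.5 and 114 ± 8.12 CPM (SD, n = 3 each, log2 fold change -0.75, adjusted p = 0.00495). The chains of type I collagen, Col1a1 and Col1a2, were at -0.68 and -0.47 with adjusted p-values of 0.139 and 0.222. Col3a1 stood at -0.73 without 3128, the library with its highest value, and had an adjusted p of 0.0966 without 3135 and of 0.0721 without 3137.

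Spon2, which encodes the secreted matrix protein spondin-2, was at 83.6, 46.7 and 43.7 CPM at 2 weeks and at 8.16, 9.65 and 8.92 CPM at 6 weeks (log2 fold change -2.70, SE 0.26, adjusted p = 0.000154). Chosen after their values were seen, 3 further called matrix genes were Tnc (tenascin-C, 58.2, 27.9 and 39.2 CPM at 2 weeks and 17.6, 15.9 and 14.5 CPM at 6 weeks, adjusted p = 0.0266), Lama1 (a laminin chain, 8.16, 7.13 and 17.1 CPM and 3.45, 3.46 and 3.86 CPM, adjusted p = 0.0199) and the aggrecanase gene Adamts4 (6.13, 2.08 and 4.67 CPM and 0.843, 0.963 and 0.663 CPM, adjusted p = 0.00735). Of 10 fibroblast markers, 0 were called in the quasi-likelihood test, the exact test or DESeq2, and 1 had an unadjusted p under 0.05 (15.5% of all genes tested). Their median log2 fold change was -0.11, with Pdgfra at 465 ± 63.9 and 406 ± 20.0 CPM (SD, n = 3 each).

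Of 12 imprinted growth genes, 1 was called lower at 6 weeks, against 0.336% of all genes tested. The growth factor gene Igf1, which is on none of the lists, was called lower too. Igf1, which encodes insulin-like growth factor 1, was at 46.3, 33.1 and 46.7 CPM at 2 weeks and at 16.8, 16.3 and 19.2 CPM at 6 weeks (log2 fold change -1.27, SE 0.13, adjusted p = 0.000154). Of 12 imprinted growth genes, most of which are known to be turned down after birth, Mest was called, at 10.2, 10.3 and 11.3 CPM and at 4.20, 4.49 and 4.57 CPM (-1.26, SE 0.21, adjusted p = 0.00714). Both groups were tight in Mest and well apart. The growth factor receptor adaptor Grb10 passed the adjusted p alone (-0.47, adjusted p = 0.0166), by which 1.02% of all genes tested were lower. Igf2, H19, Peg3 and the other members did not pass it.

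Of the cell cycle genes, 0 of 37 mitosis genes and 0 of 25 DNA replication genes were called or passed the adjusted p in the quasi-likelihood test, the exact test or DESeq2. Their median log2 fold changes were -0.09 and 0.05. The unadjusted p was under 0.05 for 2 and 3 genes in the quasi-likelihood test, against 15.5% of all genes tested. The p53 target list had 2 called genes of 18, both lower (0.336% of all genes tested), and 3 lower by the adjusted p alone (1.02%). In the quasi-likelihood test over all groups, 8 of the 18 had an unadjusted p under 0.05, against 15.5% of all genes tested. With only the 6 control libraries in the fit, 0 of the 18 were called and 8 had an unadjusted p under 0.05. The share over all genes in that fit is not given here. DESeq2 and the exact test called the same 2. Cdkn1a, which encodes the cell cycle inhibitor p21, was at 118, 88.1 and 94.1 CPM at 2 weeks and at 41.0, 53.9 and 51.2 CPM at 6 weeks (log2 fold change -1.04, SE 0.15, adjusted p = 0.00381). Eda2r, a receptor of the tumour necrosis factor family, was at 4.55, 3.75 and 3.97 CPM and at 1.74, 1.93 and 2.29 CPM (-1.04, SE 0.23, adjusted p = 0.0348), and Tnfrsf10b was at -0.79 (adjusted p = 0.0399). Other members such as Mdm2, Bax and Ccng1 did not pass the test. Without 3126 or 3135, Cdkn1a stood at -0.90 or -0.93, under the limit, with adjusted p-values of 0.0138 and 0.0309, and Eda2r was lost without any 1 of the 6 libraries (adjusted p from 0.0556 to 0.146).

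Inflammatory and interferon genes gave 1 call, lower at 6 weeks, against 0.336% of all genes called lower. Ptgs2, the inducible cyclooxygenase, was at 40.5, 26.1 and 21.2 CPM at 2 weeks and at 14.0, 10.2 and 11.1 CPM at 6 weeks (log2 fold change -1.31, SE 0.26, adjusted p = 0.022), and it was lost without 3126, 3135, 3136 or 3137 (adjusted p from 0.0533 to 0.111). The other 17 of the 18 inflammatory mediators tested were not called. Nor was any of 23 interferon-stimulated genes, 27 interferon-gamma response genes or 23 immediate early genes. Of these 3 lists, 2, 1 and 3 genes had an unadjusted p under 0.05, against 15.5% of all genes tested. DESeq2 and the exact test also called the chemokine gene Cxcl5, and the exact test Egr1, and they called 0 interferon genes. Retnla, a marker of alternatively activated macrophages, was at 40.5, 139 and 25.1 CPM and at 13.3, 12.5 and 14.4 CPM (-2.34, SE 0.52, adjusted p = 0.0348), with library 3127 far above the others. It stood at -1.29 with an adjusted p of 0.0989 without 3127, and was also lost without any 1 con_6w library (adjusted p from 0.12 to 0.132). Of 20 cholesterol synthesis genes 0 were called by any of these tools, 12 had an unadjusted p under 0.05 (15.5% of all genes tested), and 3 were lower by the adjusted p alone (1.02%), with Cyp51 at -0.98 (adjusted p = 0.0342) and Mvd at -0.76 (adjusted p = 0.0302).

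**Figure D4:**
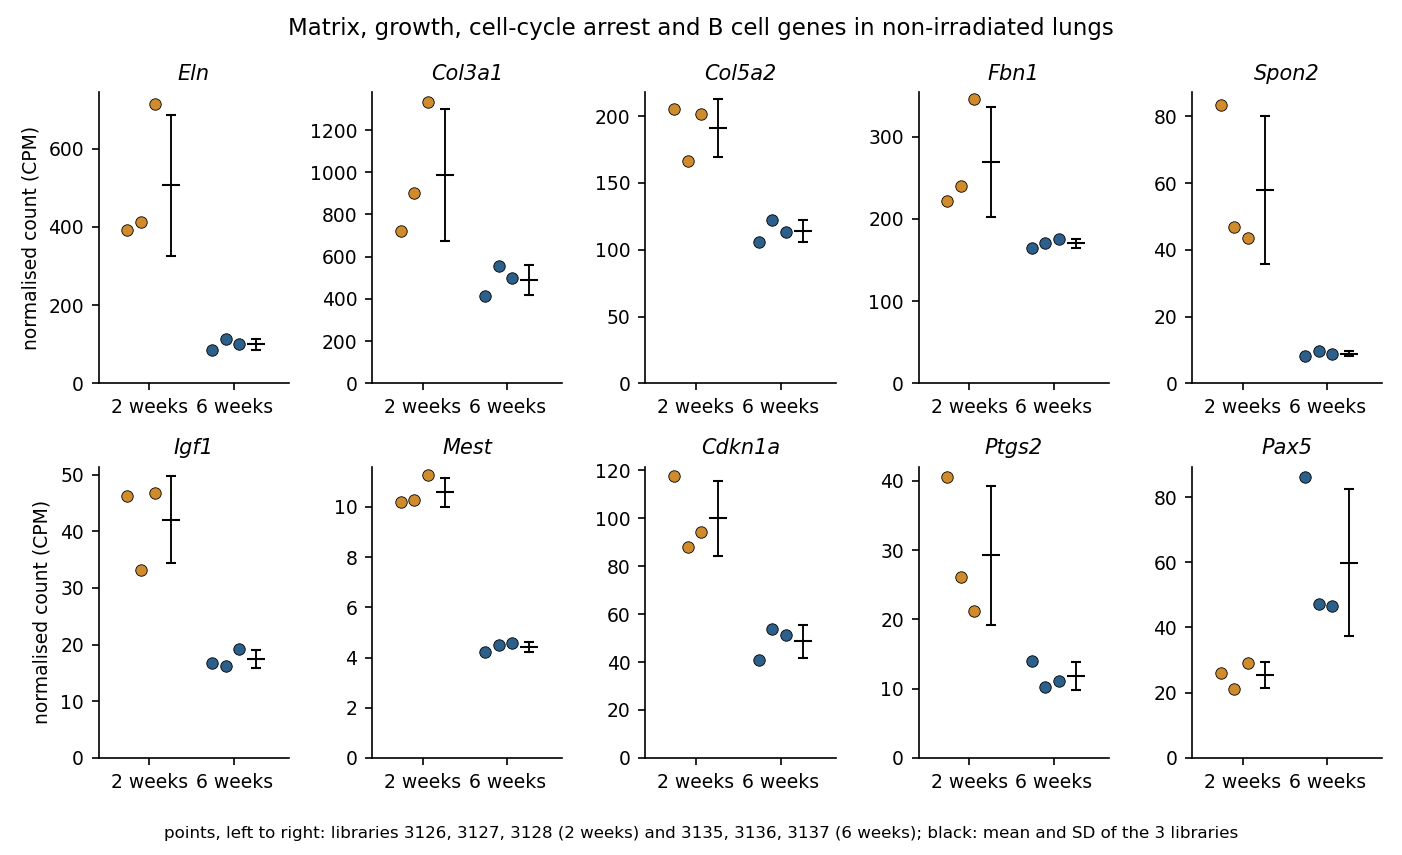
Normalised counts (CPM) of 10 genes of the matrix, growth, p53, inflammation and B cell lists in each of the 3 non-irradiated libraries of 2 weeks (orange) and of 6 weeks (blue), with the mean and SD in black. In 9 panels the gene is lower at 6 weeks, with Eln falling from a mean of 506 to 99.8 CPM, and Pax5 is higher, with 1 of the 6-week libraries far above the other 2.

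All 12 B cell markers had a log2 fold change above 0, with a median of 0.72, and 8 did not overlap between the groups (12.4% of all genes tested), but 1 was called (0.24% of all genes tested). Pax5, the transcription factor that fixes B cell identity, was at 26.1, 21.0 and 29.0 CPM at 2 weeks and at 86.1, 47.1 and 46.6 CPM at 6 weeks (log2 fold change 1.24, SE 0.25, adjusted p = 0.022). It was lost without 3126, 3127 or 3135 (adjusted p from 0.071 to 0.0966), and stood at 0.89 without 3135, the library with the highest value. In the quasi-likelihood test over all groups, 11 of the 12 had an unadjusted p under 0.05, against 15.5% of all genes tested. With only the 6 control libraries in the fit, 0 of the 12 were called and 8 had an unadjusted p under 0.05. The share over all genes in that fit is not given here. DESeq2 and the exact test called Pax5. The summed level of the 12 markers was 397, 262 and 307 CPM at 2 weeks and 750, 433 and 420 CPM at 6 weeks. Ighd, which encodes the constant region of IgD on mature B cells, passed the adjusted p alone, at 36.7, 30.8 and 33.5 CPM and at 89.4, 51.4 and 52.0 CPM (0.93, SE 0.22, adjusted p = 0.0463).

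Of 348 immunoglobulin V segments, 187 were tested, and 1 was called by the quasi-likelihood test, against 0.576% of all genes tested. The exact test called 2, and DESeq2 called 3, which did not include it. In the quasi-likelihood test 10 of the 187 had an unadjusted p under 0.05, against 15.5% of all genes tested. The log2 fold change was above 0 for 162 of the 187, with a median of 0.58. The groups did not overlap for 36, all higher at 6 weeks (12.4% of all genes tested). With only the 6 control libraries in the fit, 138 were tested, 0 were called and 30 had an unadjusted p under 0.05. The share over all genes in that fit is not given here. The called segment was Igkv4-77, which had no count in any con_2w library and was at 0.211, 0.107 and 0.175 CPM at 6 weeks. V segments resemble each other closely, so that the division of reads between them is uncertain, and no fold change is given against a group at 0. Trh, St18 and Gm5174 likewise had no count at 2 weeks, and Gm13032 had none at 6 weeks. Library 3135 was the highest of all 6 for the constant regions and the V segments, with summed levels of 1210 and 293 CPM, against 534 to 575 and 125 to 134 CPM in the other con_6w libraries.

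The other 26 cell type lists, fibroblasts included, held 314 genes tested, of which 0 were called in the quasi-likelihood test and 32, or 10.2%, had an unadjusted p under 0.05, against 15.5% of all genes tested. Of these 32, 8 were among the 11 platelet markers and 5 among the 14 alveolar type 2 markers. Without overlap, 5 platelet markers were higher at 6 weeks and 6 type 2 markers lower, against 2729 and 2479 of all 22052 genes tested. The lists covered alveolar type 2 and type 1, club, ciliated, capillary, smooth muscle, mesothelial, muscle, fat, Schwann, cartilage and squamous cells, and blood lineages from macrophages, neutrophils, mast cells and dendritic cells to platelets, red cells, T, NK and plasma cells. The exact test called 3 of the 314 genes (Lyz1, Marco and Tubb1) and DESeq2 the same 3 and Msln. By the adjusted p alone, Cxcl15, a chemokine of alveolar type 2 and airway cells (2571, 1449 and 2084 CPM at 2 weeks and 1067, 1270 and 1194 CPM at 6 weeks, -0.79, adjusted p = 0.0397), and Hdc, the histamine-forming enzyme of mast cells and basophils (-0.64, adjusted p = 0.047), were lower. The 8 mesothelial markers were all below 0, with a median of -0.85, and 10 of 11 platelet markers were above 0, with a median of 0.88, but the lowest adjusted p among them was 0.157 for Msln and 0.0631 for Tubb1. The summed capillary markers lay between 6209 and 7613 CPM at 2 weeks and between 7130 and 7297 CPM at 6 weeks, and those of alveolar type 1 cells between 6405 and 7053 and between 7141 and 7864 CPM. Library 3137 had the highest sum of cardiac muscle markers, 845 CPM against 247 to 533 CPM in the other 5. The part of tissue composition in the results above was not tested.

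The 30 genes named for the size of their change also held genes outside these lists. Among those that rose, Tent5b, which encodes a poly(A) polymerase, was at 11.7, 10.98 and 11.7 CPM at 2 weeks and at 31.3, 35.7 and 33.9 CPM at 6 weeks (log2 fold change 1.56, SE 0.21, adjusted p = 0.00226), and Il20rb, a subunit of receptors for IL-20 family cytokines, was at 1.47 (SE 0.24, adjusted p = 0.00714). Slc14a1, the urea transporter of red cells, was at 1.26 (SE 0.28, adjusted p = 0.0388) and was lost without any 1 of the 6 libraries (adjusted p from 0.0732 to 0.17). D930020B18Rik and the long non-coding genes LOC108169029, LOC115486538, Gm30259 and Gm38566 had log2 fold changes from 1.23 to 1.62.

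Among those that fell, Rasl11a, which encodes a small GTPase of the RAS family, was at 20.1, 15.8 and 16.0 CPM at 2 weeks and at 3.63, 4.19 and 4.33 CPM at 6 weeks (log2 fold change -2.09, SE 0.16, adjusted p = 1.35e-05). The groups were tight, and the gene was called with any 1 of the 6 libraries left out. Fam124b was at -1.84 (SE 0.27, adjusted p = 0.00358), Ccnjl, a cyclin-like gene, at -1.88 (SE 0.34, adjusted p = 0.0129) and Gm36317 at -1.83 (SE 0.26, adjusted p = 0.00291). Avpr1a, a vasopressin receptor, was at 4.71, 5.14 and 2.06 CPM and at 1.41, 1.21 and 1.15 CPM (-1.65, SE 0.36, adjusted p = 0.0342). Gm46041 and A730049H05Rik were at -2.07 and -1.72.

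The 11 irradiated libraries share none of the 6 control libraries, and the difference between 6 and 2 weeks was read in them too. The 127 genes were called in a fit whose spread was estimated over all 17 libraries, so that this reading is not fully independent of the calls. With only the groups compared in the fit, 32 genes were called. In irradiated lungs the difference between the times also holds any change with time after irradiation. Of the 127 genes, 114 had the same sign after 75 Gy, or 89.8%, and 111 after 65 Gy, or 87.4%, against 56.3% and 56.5% of all genes tested. After 75 Gy 32 of the 127 were called with the same sign and 3 with the opposite sign, and after 65 Gy 6 and 0. In all 22052 genes, 3.16% were called between 6 and 2 weeks after 75 Gy and 0.34% after 65 Gy. For the 76 called genes whose mean was 1 log2 CPM or more, the median change in the direction of the controls was 0.67 after 75 Gy and 0.54 after 65 Gy, against 1.27 in the controls, where the genes had been chosen for their size.

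Among the 11 irradiated libraries alone, whatever the dose, the 6 of 2 weeks and the 5 of 6 weeks did not overlap, in the direction of the controls, for 51 of the 127 genes, 26 higher and 25 lower at 6 weeks. This is 40.2%, against 7.16% of all genes tested and 12.5% of the 5208 genes whose control groups did not overlap. The calls drew on the spread within these irradiated groups too, so that the share of 40.2% is not fully independent of them. These 51 included 6 of the 8 called clock genes (Arntl, Npas2, Dbp, Per3, Nr1d2 and Tef), 4 of the 9 called chaperones (Hspa1a, Hspa1b, Hsph1 and Hspa8), Cirbp, Eln, Col3a1, Spon2, Rasl11a, Mest and Leo1. Dbp was between 16.1 and 39.8 CPM in the 6 irradiated libraries of 2 weeks and between 96.7 and 122 CPM in the 5 of 6 weeks. Arntl was between 18.7 and 28.7 CPM and between 7.65 and 9.40 CPM in the same libraries, and Spon2 between 22.1 and 40.2 and between 7.38 and 11.3 CPM. Cirbp was higher at 6 weeks by 1.11 on the log2 scale after 75 Gy (adjusted p = 0.000518) and by 0.75 after 65 Gy (adjusted p = 0.0372).

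The difference between the change after irradiation and that of the controls was tested as an interaction. It was called for 56 of 22052 genes after 75 Gy (0.254%) and for 3 after 65 Gy (0.0136%), of which 7 and 1 were among the 127. The 127 were chosen for a large change in the same control libraries that enter the interaction. Interactions opposite to the control change are therefore favoured among them. Arntl fell by 1.23 after 75 Gy, less than in the controls (interaction 1.17, SE 0.17, adjusted p = 0.0105), and the difference after 65 Gy did not pass (0.81, adjusted p = 0.223). Bhlhe41 was at 30.7, 43.2 and 47.6 CPM in the 75 Gy libraries of 2 weeks and at 39.8, 35.8 and 36.4 CPM in those of 6 weeks, so that all 6 lay above every con_2w library and above the lowest con_6w library, and its interaction was -2.05 (SE 0.23, adjusted p = 0.00431). The interaction of Igf1 was called after 65 Gy (1.34, SE 0.18, adjusted p = 0.0389). After that dose Igf1 lay between 76.7 and 84.2 CPM in the 3 libraries of 2 weeks and at 78.7 and 88.8 CPM in the 2 of 6 weeks. After 75 Gy it was at 125, 121 and 125 CPM at 2 weeks and at 88.1, 112 and 100 CPM at 6 weeks. The potassium channel genes Kcne4 and Kcnj2, the latter chosen after its values were seen, and the lipid transporter gene Mfsd2a fell in the controls and had interactions of 2.23, 1.54 and 1.94 after 75 Gy (adjusted p = 0.0105, 0.0332 and 0.0105).

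The interaction was called for no gene of the heat shock, collagen and elastic fibre lists after either dose in the quasi-likelihood test. Of all genes tested, it was called for 0.254% after 75 Gy and 0.0136% after 65 Gy. At these shares, no call in lists this short does not show that these genes changed alike with and without irradiation. Hspa1b was at 28.4, 21.8 and 30.7 CPM in the 75 Gy libraries of 2 weeks and at 13.9, 12.1 and 13.8 CPM in those of 6 weeks, near library 3128 of the 2-week controls and below 3126 and 3127, and its interaction of 2.34 (SE 0.59) had an adjusted p of 0.117. Eln was between 413 and 872 CPM in the irradiated libraries of 2 weeks and between 299.9 and 401 CPM in those of 6 weeks, all above the con_6w libraries, and its interaction of 1.33 (SE 0.35) after 75 Gy had an adjusted p of 0.128. The median log2 fold change of the heat shock list was -0.35 after 75 Gy and -0.33 after 65 Gy. In the quasi-likelihood test 0 of its 21 genes were called after either dose. Of all genes tested, 3.16% were called after 75 Gy and 0.34% after 65 Gy, and 0 of 21 is near these shares. The median of the core clock list was 0.07 and 0.34, with 3 genes called higher and 2 lower after 75 Gy and 0 higher and 2 lower after 65 Gy. Of all 22052 genes tested, 512 were called higher and 184 lower after 75 Gy, and 56 higher and 19 lower after 65 Gy.

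**Figure D5:**
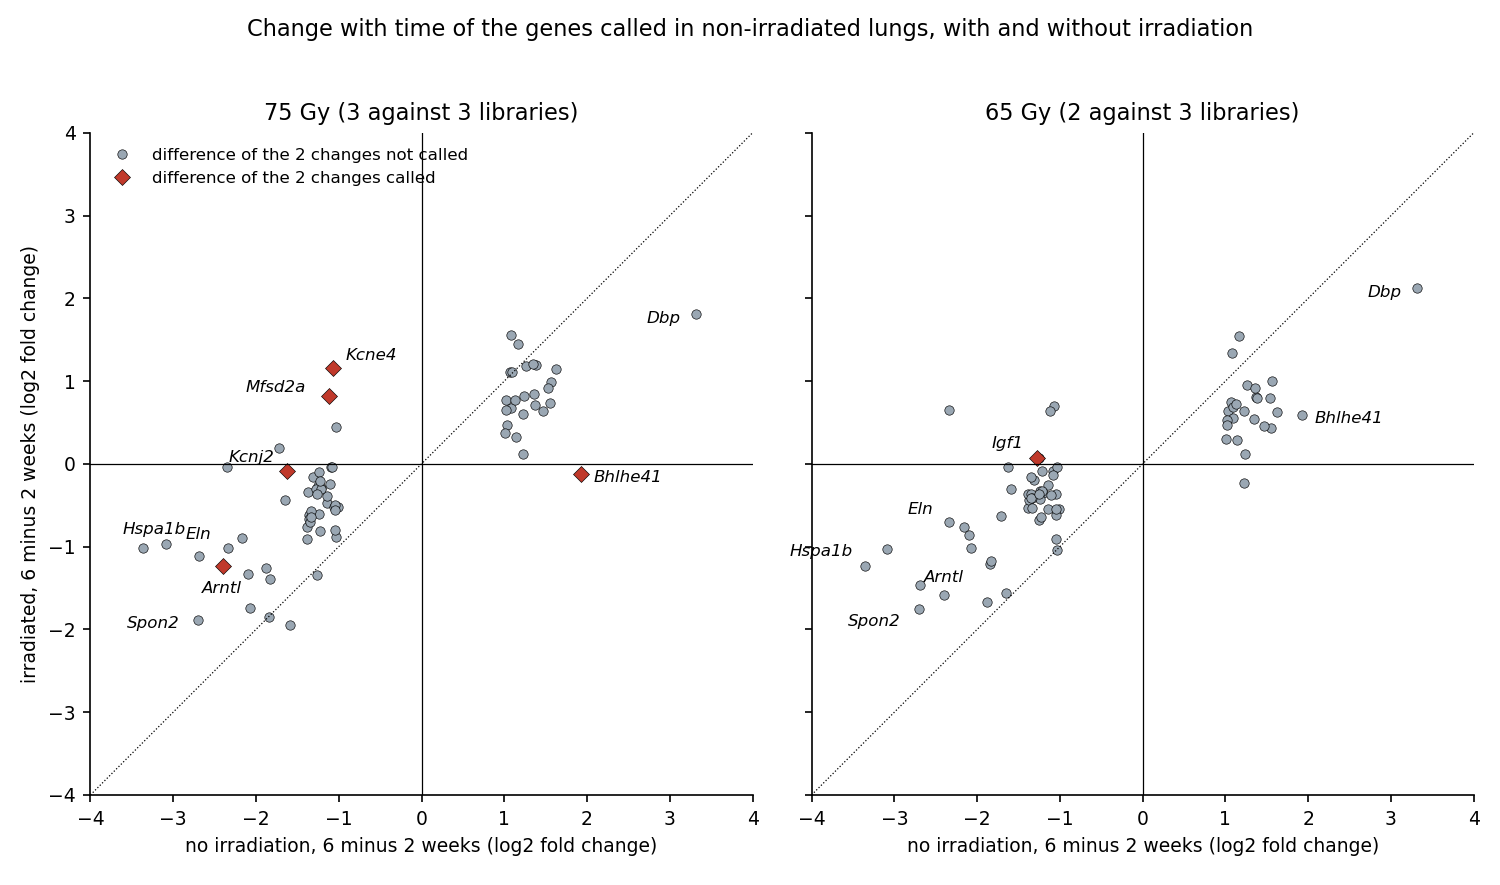
For the 76 genes called in the controls whose mean was 1 log2 CPM or more, the log2 fold change between 6 and 2 weeks after 75 Gy (left) and 65 Gy (right) is plotted against that without irradiation, with red diamonds for genes whose difference between both changes was called. The dotted line marks equal change, and 71 genes after 75 Gy and 70 after 65 Gy have the same sign as in the controls.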

How the data were processed

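Total RNA of mouse lung was sequenced, and the deposited table holds whole-number gene counts of 17 libraries. Per the labels and methods, the authors checked reads with FastQC, trimmed them with Trimmomatic, aligned them with HISAT2 to GRCm38.p6 and assembled transcripts with StringTie; the step from StringTie to counts is not given in the sources used here, nor is the use of strand. Reads of near-identical genes and pseudogenes may therefore be divided in ways that cannot be checked. RNA isolation is described as RNeasy Mini in the labels and with QIAzol in the methods.

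Libraries were grouped by their labels. Of 45777 genes, 22052 passed filterByExpr (minimum count 10, minimum total 15). One model with a coefficient for each group was fitted to all 17 libraries with edgeR 4.0.16 in R 4.3.3 (TMM factors, quasi-likelihood test, limma 3.58.1), and p-values were adjusted over all 22052 genes by Benjamini-Hochberg. Called genes had an adjusted p of 0.05 or less and a log2 fold change of 1 or more in either direction. SE is the log2 fold change divided by the square root of F, and CPM used TMM library sizes. Irradiated lungs and interactions were contrasts of the same model. Named genes were the 15 largest rises and falls among called genes averaging 1 log2 CPM or more whose groups did not overlap, called list members, the 2 members of each list with the smallest p, all core clock genes but 1, which is not reported here by name, and genes whose interaction was called; others are said to be chosen after their values were seen. Alternatives were other scalings, filters and tools (edgeR's exact test, DESeq2 1.42.0), only the groups compared, other limits, and each library left out. The gene lists and the comparison were chosen with earlier results of these data known. Scripts were tested on simulated data.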

Additional observations from a re-analysis of the deposited data

Results flagged for a closer look

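For 10 of the genes named by the stated rule the change between 6 and 2 weeks differed between irradiated and non-irradiated lungs, by the interaction in edgeR's quasi-likelihood test. The rule itself takes in genes for a called interaction, namely LOC115490151, Kng2, Kcne4, Bhlhe41, Mfsd2a and Igf1. The count of 10 is therefore partly fixed by the rule. Over all genes tested, the interaction was called for 0.254% after 75 Gy and 0.0136% after 65 Gy. The values are the log2 fold change after irradiation minus that without it. After 75 Gy, Bhlhe41 differed by -2.05 (SE 0.227, adjusted p = 0.00431) and Arntl by 1.17 (SE 0.174, adjusted p = 0.0105). The matrix proteoglycan gene Dcn differed by 1.60 (SE 0.248, adjusted p = 0.0125), the macrophage scavenger receptor gene Marco by -2.35 (SE 0.398, adjusted p = 0.02) and the dendritic cell lectin gene Cd209a by 1.86 (SE 0.286, adjusted p = 0.0125).

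LOC115490151 differed by 2.91 (SE 0.516, adjusted p = 0.0272), the kininogen gene Kng2 by 2.497 (SE 0.35, adjusted p = 0.00841), Kcne4 by 2.23 (SE 0.333, adjusted p = 0.0105) and Mfsd2a by 1.94 (SE 0.292, adjusted p = 0.0105). After 65 Gy, Igf1 differed by 1.34 (SE 0.183, adjusted p = 0.0389). Groups of 3 libraries are too small for a test of single outlying libraries.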

How the results depend on the processing

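No paired analysis was possible because no replicate number occurs in more than 1 group. Of the 50 named called genes, 0 changed the sign of their fold change under any alternative run. Between con_6w and con_2w, the 127 calls became 238 with the exact test, 225 with DESeq2, 32 with only the groups compared, 359 without the limit on fold change and 583 with unadjusted p, and lay between 58 (without 3135) and 133 (without 3127) with 1 library left out, with 70 without 3126, 61 without 3136 and 62 without 3137. The share of calls that were higher at 6 weeks was 41.7%, and 54.4% with unadjusted p. For 75 Gy, 696 calls became 171 with only the groups compared, 2387 without the fold limit and 1252 with unadjusted p (286 to 777 with 1 library left out). For 65 Gy, 75 calls became 242, 228, 192 and 678 with the exact test, DESeq2, only the groups compared and unadjusted p (15 to 57). The 56 interactions at 75 Gy became 301 with DESeq2 and 978 with unadjusted p (29 to 104), and the 3 at 65 Gy became 5 with every gene of at least 1 count, 78 with DESeq2, 9 with only the groups compared and 660 with unadjusted p (0 to 7). Counts over lists were added as alternatives after the data were seen: 8 called clock genes became 4 with only the groups compared (5 to 8 with 1 library left out), and 9 chaperones became 1, or 15 without the fold limit (7 to 10). Of these genes, 31 were called without 3126, 28 without 3136 and, of 49 tested, 28 without 3135 and 19 with only the groups compared, where Col3a1, Cdkn1a, Eda2r, Pax5 and Ptgs2 were among the 30 lost. Where 65 Gy at 6 weeks is left with 1 library, it is assumed to vary like the other groups. The cause of the differences between fits was not tested.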

Other observations

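Some genes were high in 1 control library without passing the test. Egr1, an immediate early transcription factor, was at 91.1, 60.8 and 51.5 CPM in con_2w and at 651, 107 and 144 CPM in con_6w, with library 3135 highest (log2 fold change 2.15, adjusted p = 0.139). Of 6 aryl hydrocarbon receptor targets tested, 0 were called by the quasi-likelihood test, the exact test or DESeq2. In the quasi-likelihood test 2 had an unadjusted p under 0.05, against 15.5% of all genes tested. Cyp1a1, the best known of them, was at 22.7, 18.2 and 284 CPM in con_2w, with library 3128 highest, and at 9.49, 8.74 and 16.5 CPM in con_6w (adjusted p = 0.226). Bpifa1, a secreted protein of the upper airway, was at 8.44, 222 and 10.7 CPM and at 86.0, 4.76 and 448 CPM. The squamous epithelium markers summed to 4.95 CPM in 3127 and 10.2 CPM in 3137 and to between 1.34 and 1.47 CPM in the other 4 libraries.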
